A study of Mus musculus with 4 samples.

Results

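Runx1, Runx2, Runx3 and Cbfb, the 4 genes that encode the RUNX transcription factors and their common partner CBFβ, were examined for open chromatin by ATAC-seq in RAW264.7 cells, a mouse macrophage line derived from a virus-induced tumour. In ATAC-seq, the Tn5 transposase cuts and tags DNA where it is accessible, so that reads pile up into peaks. The genes were chosen by name, 4 of 21426 protein-coding genes whose strand was known, and every peak with its summit from 50 kb before the 5′ end of a gene to its 3′ end was read. Peaks of the libraries were merged where they shared at least 1 bp, which gave 25 member regions of 36037 in all. All cells were wild type and were given DIL-oxLDL, a dye-labelled oxidised lipoprotein, at 25 ug/mL for 24 h. The control group (n = 2) also received DMSO with no esculetin, and the esculetin group (n = 2) received 40 ug/mL of esculetin, a plant coumarin. No group without oxLDL was analysed here, and all libraries came from 1 immortal cell line. The labels do not say that replicates were separate cultures, so p-values measure only the spread between these libraries.

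RUNX proteins bind DNA through the Runt domain and act as activators or repressors depending on the proteins they recruit. CBFβ does not bind DNA itself, but it raises the affinity and stability of RUNX proteins on DNA. Runx1 is needed for blood stem cells to form and acts in myeloid cells together with PU.1, Runx2 drives bone formation, and Runx3 acts in T cells and dendritic cells. Each RUNX gene is read from a distal promoter at its 5′ end and from a proximal promoter inside the gene, which give proteins with different first residues. A blood stem cell enhancer is known in the first intron of Runx1, and whether any peak here lay on it was not determined.

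In the mm10 build, Runx1 lay at chr16:92601466-92826074 on the minus strand, Runx2 at chr17:44495987-44814797 on the minus strand, Runx3 at chr4:135120645-135177990 on the plus strand and Cbfb at chr8:105170674-105217989 on the plus strand. The proximal promoters lay 128.7 kb into Runx1, 78.1 kb into Runx2 and 31.9 kb into Runx3. A peak was placed at a promoter where its summit lay within 1 kb of the start. No region outside the promoters overlapped an annotated exon of the member gene itself, so with respect to that gene these regions were intronic or upstream. One of them, in Runx2, lay at the start of another gene, Supt3.

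The sequences of 4 promoters that carried a peak in at least 1 library are shown because the results turn on them. The proximal start of Runx2, which also carried one, is named only. Each runs 5′ to 3′ on the strand of the gene and holds the 250 bases before the RefSeq start (GRCm38.p6). Capitals mark, on either strand, a CCAAT box (CCAAT, the letters read by NF-Y), a RUNX motif (TGTGGT or the variant TGCGGT) or an ETS motif (GGAAGT). The Runx1 distal promoter is chr16:92826075-92826324 (minus strand), the Runx1 proximal promoter chr16:92697330-92697579 (minus strand), the Runx3 distal promoter chr4:135120395-135120644 (plus strand) and the Cbfb promoter chr8:105170424-105170673 (plus strand).
Runx1 distal promoter: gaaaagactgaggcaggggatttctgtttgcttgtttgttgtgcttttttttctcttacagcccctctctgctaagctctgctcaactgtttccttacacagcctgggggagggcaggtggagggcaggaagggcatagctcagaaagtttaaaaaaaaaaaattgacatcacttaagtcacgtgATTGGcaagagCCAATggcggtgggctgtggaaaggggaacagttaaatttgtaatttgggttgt
Runx1 proximal promoter: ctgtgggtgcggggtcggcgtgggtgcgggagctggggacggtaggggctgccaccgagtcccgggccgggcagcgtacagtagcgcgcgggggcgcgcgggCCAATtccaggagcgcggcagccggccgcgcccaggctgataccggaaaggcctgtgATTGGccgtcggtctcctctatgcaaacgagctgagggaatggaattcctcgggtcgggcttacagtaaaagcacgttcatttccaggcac
Runx3 distal promoter: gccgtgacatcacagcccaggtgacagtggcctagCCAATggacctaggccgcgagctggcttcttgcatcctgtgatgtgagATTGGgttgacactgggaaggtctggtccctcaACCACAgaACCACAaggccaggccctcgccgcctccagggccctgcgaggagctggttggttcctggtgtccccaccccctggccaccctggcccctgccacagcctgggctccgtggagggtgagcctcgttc
Cbfb promoter: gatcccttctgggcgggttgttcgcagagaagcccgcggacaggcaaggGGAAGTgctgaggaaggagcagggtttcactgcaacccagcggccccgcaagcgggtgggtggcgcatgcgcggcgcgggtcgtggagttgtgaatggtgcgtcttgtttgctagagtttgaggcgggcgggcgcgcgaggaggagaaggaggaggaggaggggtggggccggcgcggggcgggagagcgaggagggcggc

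The distal promoters of the 3 RUNX genes shared a run of 18 bases that holds ACCACA, the RUNX motif read on the other strand, at 2 places. Among 32851 RefSeq promoter windows, the run was found in 4, the last being that of the lncRNA gene Gm16225, whose start lies beside that of Runx3. The run is shown in capitals with its flanks, in all 30 bases on the strand of each gene, at chr16:92826025-92826054 for Runx1, chr17:44814583-44814612 for Runx2 and chr4:135120503-135120532 for Runx3.
Runx1 distal promoter run: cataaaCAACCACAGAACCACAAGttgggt
Runx2 distal promoter run: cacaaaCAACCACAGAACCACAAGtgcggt
Runx3 distal promoter run: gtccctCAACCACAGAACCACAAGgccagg
In Runx1 the run lay just after the start, and a peak covered all 30 bases in all 4 libraries. In Runx2 it also lay just after the start, and no library had a peak on it. In Runx3 it lay before the start and was covered in esculetin replicate 2 alone. In windows of 300 bases, which add the 50 bases after the start, a RUNX motif on either strand was present in 22.4% of all promoters and at least 2 in 2.86%. The Runx1 and Runx3 distal windows each held 2 RUNX motifs and the Runx2 distal window held 4, whereas the Runx1 proximal, Runx3 proximal and Cbfb windows held none. At least 1 CCAAT box was found in 37.4% of all promoters and at least 2 in 11.7%. There were 2 each in the Runx1 distal, Runx1 proximal and Runx3 distal windows, 1 in the Runx3 proximal window and none in the Runx2 distal and Cbfb windows. The Cbfb window held 2 ETS motifs, against at least 1 in 23.8% and at least 2 in 4.18% of all promoters. The GC content was 45.0% in the Runx1 distal window and 69.7% in the Cbfb window, with a median of 52.7% over all promoters.

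The libraries differed in ways that touch every count. Control replicates 1 and 2 listed 19475 and 27731 peaks on chromosomes 1 to 19, X and Y, and esculetin replicates 1 and 2 listed 8581 and 12680. The genome background, the mean read coverage per base solved from each list and a measure of depth, was 6.51, 4.08, 4.97 and 4.10 in the same order. Control replicate 2 stood apart, with 35.1% of all merged regions called in it alone. Its summit coverage over background was above that of control replicate 1 in 12 of 12 member regions called in both controls, as in 91.3% of all such regions. Of 10 macrophage markers, 5 and 6 had a promoter peak in the controls and 1 and 3 with esculetin, fewer with esculetin as in the Runx1 and target gene counts, and its part in those was not tested. Over all protein-coding promoters the shares with a peak were 37.3% and 38.8% in the controls and 27.9% and 34.9% with esculetin, and 56.4% had none in any library. Spi1 had one in all 4 libraries, and 3, Itgam and Adgre1 among them, had none in any. None of 6 osteoblast, 6 T cell, 4 B cell, 6 epithelial and 6 kidney epithelial markers had a promoter peak in any library.

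Whether esculetin changed the accessible regions of the RUNX family was first examined by the number of peaks. Runx1, the member with most peaks, had 11 and 13 peaks in the controls and 2 and 3 with esculetin, a mean of 12.0 ± 1.41 against 2.50 ± 0.707 (SD, n = 2). The groups did not overlap, and the difference of 9.5 peaks exceeded either SD. The two-sided exact permutation test gave p = 0.33, the smallest that 2 against 2 libraries allow. Of 16283 protein-coding windows with a peak, 34.9% had both control counts above both esculetin counts. The Runx1 ratio of esculetin to control was 0.208, and that of the whole lists was 0.450.

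The difference at Runx1 depended on how far down each list was read. In the 8581 strongest peaks of every list, the Runx1 window held 2 and 1 peaks in the controls and 2 and 1 with esculetin, a difference of 0 (exact permutation p = 1). In the 12680 strongest, it held 6 and 3 in the control libraries and 3 in esculetin replicate 2. The strongest Runx1 peak had rank 4501 and 6389 in the control lists, and 6194 and 7314 in the esculetin lists. List length and esculetin cannot be told apart in these counts.

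**Figure D1:**
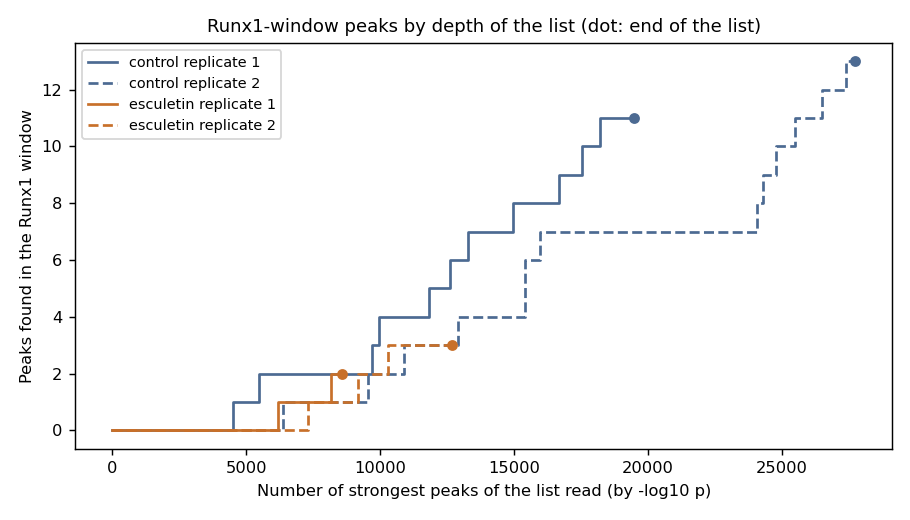
The number of peaks found in the Runx1 window (y axis) is plotted against the number of strongest peaks read from each list (x axis), with control libraries in blue, esculetin libraries in orange, replicate 1 solid, replicate 2 dashed and a dot at the end of each list. The esculetin lines end at 2 and 3 peaks after 8581 and 12680 listed peaks, and the control lines go on to 11 and 13.

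Runx2, the bone regulator, had 3 and 3 peaks in the controls and 1 and 2 with esculetin, a mean of 3.00 ± 0 against 1.5 ± 0.707 (SD, n = 2, exact permutation p = 0.33). In the 8581 strongest peaks it had 1 in each library. Runx3 had none in either control, none in the first esculetin library and 2 in the second (exact permutation p = 1). Cbfb had 1 and 2 peaks in the controls and 1 and 2 with esculetin (exact permutation p = 1). Over the 4 genes together, the peaks per 1000 listed were 0.770 and 0.649 in the controls and 0.466 and 0.710 with esculetin. The groups thus overlapped for this pool once list length was divided out. Of the member regions called in esculetin replicate 2 alone, none was at Runx1. There the ratio of esculetin to control counts, 0.208, was below that of the whole lists, 0.450.

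By presence, 6 of the 25 member regions were found in both controls without a peak in either esculetin library, against 13.9% of all merged regions. That count was 1 in equal numbers of top peaks and 12 without control replicate 1. The latter takes in, by construction, the 6 regions called in control replicate 2 alone. Shares over all regions at these settings are not given here. No member region was found in both esculetin libraries without a control peak, against 0.832% of all. Without esculetin replicate 1 this count was 4, the regions called in esculetin replicate 2 alone. No gene of the 4 had more peaks in both esculetin libraries than in both controls, as did 0.473% of windows. A further 3 regions were called in all libraries (17.2% of all), 13 in 1 library alone (56.3% of all) and 3 in both controls and 1 esculetin library. The share of all regions with this last pattern is not given here. The count in all libraries was 1 in equal numbers of top peaks and 5 without esculetin replicate 1. The single calls were 3 in control replicate 1 (12.2% of all regions), 6 in control replicate 2 (35.1%), none in esculetin replicate 1 (2.16%) and 4 in esculetin replicate 2 (6.89%). Of 10 member regions called in an esculetin library, 6 were also called in a control library, against 74.6% of all regions with an esculetin peak. The 4 others, all in esculetin replicate 2 alone, were 2 at Runx3, 1 at Runx2 and 1 at Cbfb.

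At the Runx1 distal promoter, which makes the longer RUNX1 protein, a peak was called in all 4 libraries (region chr16:92825889-92826310). Its percentile within the list, a rank by −log10 p that rises from the weakest to the strongest peak, was 23.2 and 4.50 in the controls and 4.95 and 18.8 with esculetin. The summit held 30 and 21 reads in the controls and 23 and 23 with esculetin, which is 4.61 and 5.15 against 4.63 and 5.61 times the genome background. The groups overlapped on both scales, and the peak was among the weaker ones of every list. The mean percentile was 13.8 ± 13.2 against 11.9 ± 9.76 (SD, n = 2, exact permutation p = 1), and the mean level over background was 4.88 ± 0.380 against 5.12 ± 0.693 (exact permutation p = 0.67). The difference of percentiles was within the spread of replicates and turned positive when control replicate 1 (7.35) or esculetin replicate 1 (4.93) was omitted. A promoter peak in all libraries was found at 24.8% of protein-coding genes.

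The Runx1 proximal promoter, the start of the shorter RUNX1 protein, had a peak in 3 libraries (region chr16:92697234-92697587). Its percentile was 48.9 and 60.7 in the control libraries and 27.8 in esculetin replicate 1, with 35, 35 and 24 summit reads, and no peak was called in esculetin replicate 2. Both control libraries were higher than the esculetin library that had the peak, on the percentile and in level over background (5.38 and 8.58 against 4.83). The 95% Poisson interval of the latter, 3.10 to 7.19, overlapped those of both controls (3.75 to 7.48 and 5.98 to 11.9). Intervals of this kind cover counting error only. With 1 library lacking the peak, no test was made. Within 1 kb of the same start, control replicate 2 alone had a peak at percentile 1.22 and control replicate 1 alone had one at percentile 35.3.

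The remaining Runx1 regions comprised 9 intronic regions and 3 upstream. The control libraries had 5 and 9 of the intronic regions, esculetin replicate 1 had none and esculetin replicate 2 had 1. By mean percentile over the libraries that had it, the strongest lay 2.34 kb into the gene (chr16:92823630-92823869), at percentile 65.6 with 37 summit reads in control replicate 2 alone. The highest single percentile was at 205.1 kb (chr16:92620747-92621530), where it was 76.9 and 77.0 in the controls and 27.7 in esculetin replicate 2. It held 40 and 38 summit reads against 21, or 6.15 and 9.32 against 5.12 times background, and no peak was called there in esculetin replicate 1. The control values lay above the esculetin value on every scale, but the 95% intervals of the level (4.39 to 8.37 and 6.59 to 12.8 against 3.17 to 7.83) overlapped.

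Of the intronic Runx1 regions, 4 were called in both control libraries and in neither esculetin library. The region at 38.9 kb (chr16:92786986-92787388) was the strongest of them, at percentiles of 72.0 and 53.5 with 41 and 31 summit reads. A pair lay close together at 24.2 kb (chr16:92801527-92801974, percentiles 6.58 and 13.3) and 25.0 kb (chr16:92800866-92801236, 9.91 and 44.4). The fourth, at 171.3 kb (chr16:92654610-92655129), had percentiles of 31.5 and 10.6. All 4 lie in introns, and the first 3 lie between the distal and the proximal start. Except at 38.9 kb, at least 1 control library had the region at a percentile of 10.6 or less.

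Upstream of Runx1, the region 41.3 kb before the distal start (chr16:92867261-92867653) was called in both control libraries and esculetin replicate 2. Its percentiles were 14.5 and 44.5 in the control libraries and 42.3 in esculetin replicate 2, so the esculetin value lay between the control values. The summit reads were 28, 29 and 27. The other 8 Runx1 regions were called in 1 control library each, 3 in control replicate 1 (percentiles 35.3 to 50.3) and 5 in control replicate 2 (1.22 to 65.6). The nearest start of another gene lay at least 24.8 kb from any Runx1 region.

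**Figure D2:**
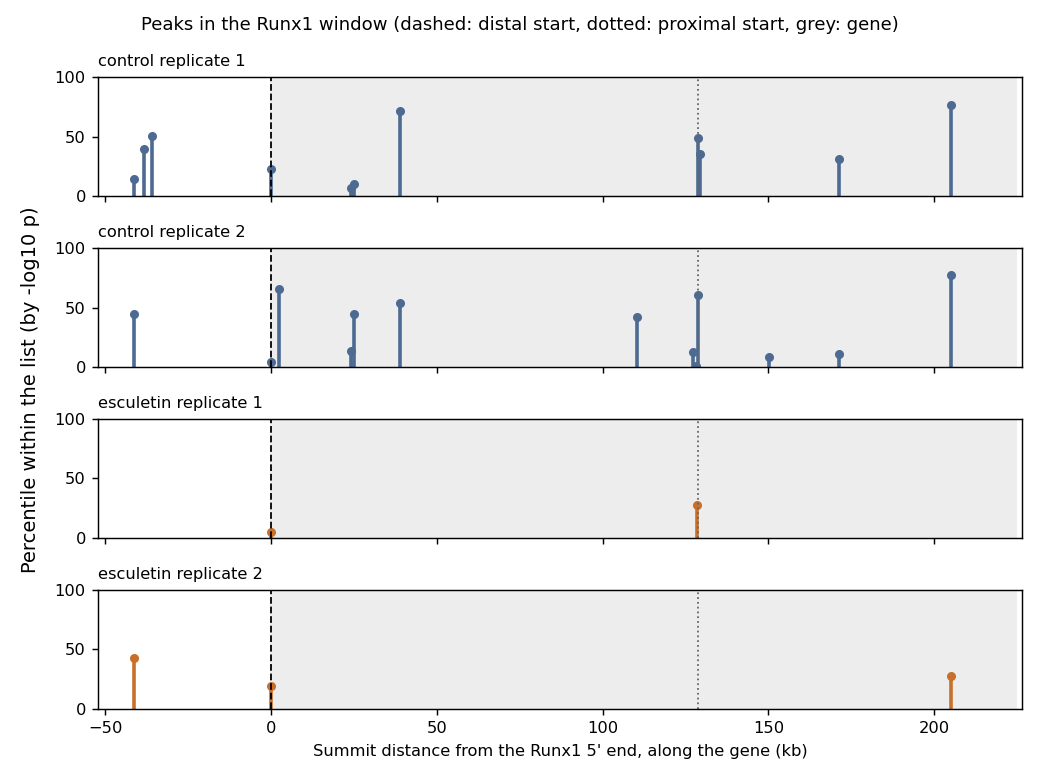
Each panel shows 1 library, with the summit distance of a peak from the Runx1 5′ end along the gene in kb on the x axis and its percentile within the list on the y axis (dashed line, distal start; dotted line, proximal start; grey, gene body). The peak at the distal start is low in all 4 panels, and the intronic peaks at 38.9 kb and 205.1 kb reach 72.0 and 77.0 in the control panels.

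Runx2 differed from Runx1 in having no peak at its distal promoter in any library, a pattern shared with 56.4% of protein-coding promoters. The 1 region called in all libraries lay 37.7 kb into Runx2 (chr17:44776678-44777819), and this is also the start of Supt3, 12 bp away, a subunit gene of the SAGA coactivator complex read from the opposite strand. Its percentiles were 74.8 and 80.6 in the controls and 78.8 and 79.0 with esculetin, and its summit held 41, 43, 43 and 39 reads. It was among the strongest of the member regions, and both esculetin percentiles lay between those of the controls. By percentile of the fold, it stood at 77.2 and 79.4 in the controls and 82.6 and 84.5 with esculetin, both above both controls, as in 15.5% of regions called in all libraries. Because it is the promoter of another gene, it cannot be assigned to Runx2.

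Besides this region, Runx2 had 2 intronic regions called in both control libraries only, at 104.7 kb (chr17:44709943-44710206, percentiles 31.5 and 50.7) and at 150.7 kb (chr17:44663966-44664354, 0.911 and 1.92). The latter was close to the end of both control lists. At the proximal start of Runx2, a peak was called in esculetin replicate 2 alone (chr17:44736200-44736511), at percentile 3.94 with 16 summit reads. It was among the weakest of that list.

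The absence of a peak was set beside the lowest level that was called. At the genome background, the smallest summit that could be called was 17, 13, 15 and 13 reads, or 2.61, 3.19, 3.02 and 3.17 times background in the order given above. In the 6 regions called in both controls only, the lower of the control levels ranged from 2.92 at Runx2 150.7 kb to 6.30 at Runx1 38.9 kb. Its 95% Poisson interval held the higher esculetin limit, 3.17, in 5 of the 6. At Runx1 38.9 kb the interval, 4.52 to 8.55, lay above it. In 4 of the 6, at least 1 control library had its interval above the limit. The margin was narrow at Runx1 24.2 kb, where the interval of control replicate 2 began at 3.19 against 3.17. The limits hold at the genome background. At Runx1 24.2 kb the local background of control replicate 2 was 5.06 reads, above its genome background of 4.08. A region with no peak may still hold reads below these limits, and its level was not measured.

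Runx3 had a peak at its distal promoter in esculetin replicate 2 alone (chr4:135120362-135120626), as did 1.37% of protein-coding promoters. Its percentile was 38.0 and its summit held 26 reads, 6.34 times background (95% Poisson interval 4.14 to 9.29). The summit lay 117 bp before the Runx3 start, and the start of Gm16225 lay 152 bp from it, so the peak lay at both starts. The peak was in the middle of its list, and the 2 esculetin libraries differed in it. No library had a peak at the proximal promoter of Runx3. The other Runx3 region, 40.1 kb before the start, was also called in esculetin replicate 2 alone, at percentile 8.20.

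**Figure D3:**
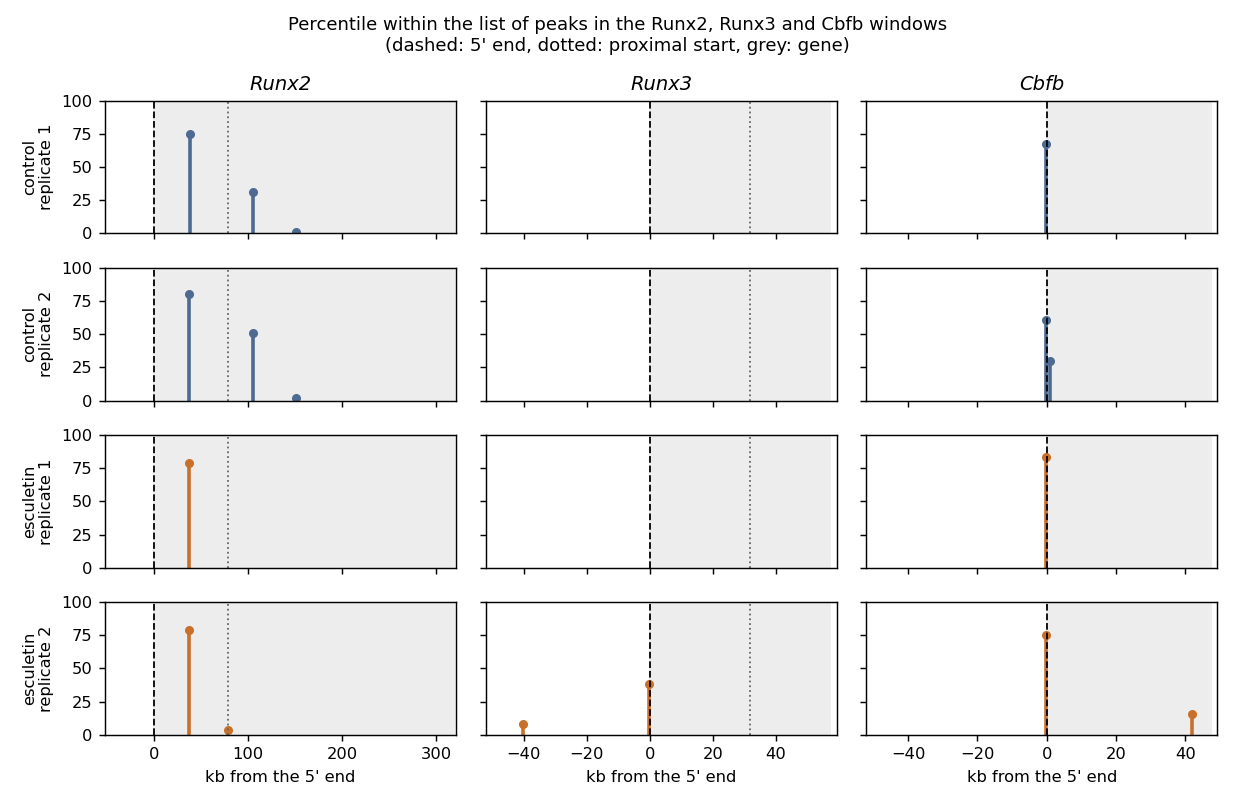
Columns show Runx2, Runx3 and Cbfb and rows show the 4 libraries, with the summit distance from the 5′ end in kb on the x axis and the percentile within the list on the y axis (dashed line, 5′ end; dotted line, proximal start; grey, gene body). The peaks at the Supt3 start in Runx2 and at the Cbfb promoter are present in all rows, and the Runx3 peaks in the row of esculetin replicate 2 only.

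Cbfb, which encodes the partner of all 3 RUNX proteins, had a promoter peak in all 4 libraries (region chr8:105170366-105170959), and that peak covered all 300 bases of its promoter window in each. Its percentiles were 67.6 and 60.7 in the controls and 83.6 and 75.5 with esculetin. Its summit held 40 and 32 reads in the controls and 48 and 38 with esculetin, which is 6.15 and 7.84 against 9.66 and 9.27 times background. Both esculetin libraries lay above both control libraries on the percentile and in the level over background. The mean percentile was 64.2 ± 4.88 against 79.5 ± 5.69 (SD, n = 2), a difference of 15.4 points that exceeded either SD (exact permutation p = 0.33, the smallest possible). The level over background was 7.00 ± 1.20 against 9.47 ± 0.279 (exact permutation p = 0.33). The 95% Poisson intervals of the level overlapped between all 4 libraries, from 4.39 to 8.37 in control replicate 1 and 6.56 to 12.7 in esculetin replicate 2, for example.

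How common the direction at Cbfb was depended on the scale. Among 5315 protein-coding promoters with a peak in all libraries, both esculetin percentiles lay above both control percentiles in 14.7%, and the opposite order was found in 29.5%. By summit reads over background, both esculetin libraries were above both controls in 18.5% of such promoters. Over all regions called in all libraries, that scale put both esculetin values above in 18.8% and both controls above in 12.5%, and by percentile of the fold both esculetin values were above in 15.5%. In equal numbers of top peaks, 37.3% of 3009 promoters had both esculetin percentiles above. Of the 3 member regions called in all libraries, Cbfb was the 1 with both esculetin percentiles above (14.5% of all such regions), and none had both control percentiles above (31% of all). Among the 8581 strongest peaks of each list, the Cbfb peak stood at percentile 26.5 in control replicate 1 and at 83.6 and 63.8 with esculetin, and it was not among those of control replicate 2. The other Cbfb regions were single calls, one 0.867 kb after the start in control replicate 2 (percentile 29.8) and one 41.9 kb into the gene in esculetin replicate 2 (percentile 15.6).

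**Figure D4:**
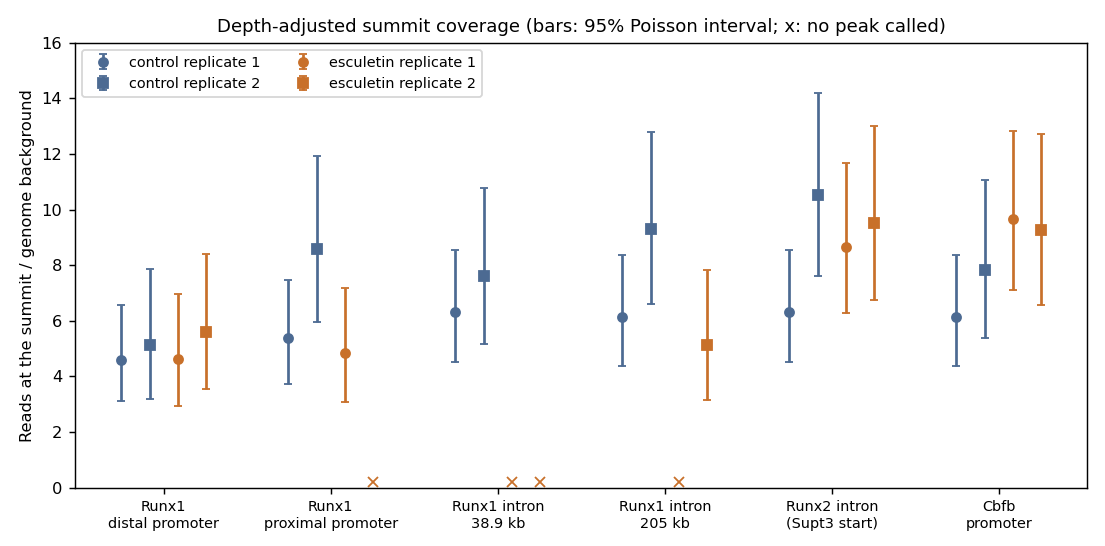
Summit reads divided by the genome background of the library (y axis) are plotted for 6 regions named in the text (x axis), with control libraries in blue, esculetin libraries in orange, replicate 1 as circles, replicate 2 as squares, bars as 95% Poisson intervals and crosses where no peak was called. Both esculetin values at the Cbfb promoter (9.66 and 9.27) lie above the control values (6.15 and 7.84), and the 4 values at the Runx1 distal promoter lie between 4.61 and 5.61.

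The promoters nearest in pattern were found by the Euclidean distance over the 4 percentiles, with 0 for a library without the peak. For the Runx1 distal promoter they were those of Sac3d1, Polr3a and Itga5, at distances of 6.2, 6.7 and 6.7 percentile points. None of these had a peak in all 4 libraries, since Sac3d1 lacked one in esculetin replicate 1, and Polr3a and Itga5 in that library and control replicate 2. For Cbfb they were Zfp292, Hnrnpm and Plxnd1, at 5.2, 5.7 and 6.6 points. For Runx3 they were Casp4, Amigo3 and Hip1r, at 0.3, 0.4 and 0.6 points, all with a peak in esculetin replicate 2 alone. With 0 for the other libraries, promoters called in that library alone at a like percentile lie close by construction.

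Proteins that act with RUNX factors, a list of 30 genes of corepressors, coactivators, modifying enzymes and partner factors, had a promoter peak in 18 and 20 cases in the controls and 16 and 17 with esculetin. The shares over all protein-coding promoters were 37.3%, 38.8%, 27.9% and 34.9% in the same order. Of the list, 14 genes had a promoter peak in all libraries (24.8% of all promoters), 1 in both controls only (3.35% of all promoters), 1 in both esculetin libraries only (0.411% of all) and 9 in none (56.4% of all). With equal numbers of top peaks, the difference of means (esculetin minus control) turned from -2.5 to 7.5 genes. Hipk2, a kinase that phosphorylates RUNX1, was the gene of the controls, with percentiles of 45.4 and 46.3. Suv39h1, a histone H3 lysine methyltransferase, was that of the esculetin libraries, with 40.8 and 52.3.

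The partner genes with the highest peaks were Tle1 and Tle4, which encode groucho corepressors. Of the other groucho genes listed, Tle3 had no promoter peak in esculetin replicate 1, and Tle2 and Tle5 had none in any library. These 3 were named after their values were seen. Tle1 had percentiles of 98.0 and 93.8 in the controls and 88.1 and 98.8 with esculetin. Tle4 had 98.3 and 91.3 against 86.7 and 99.0. In both genes the groups overlapped. The corepressor gene Cbfa2t2 (91.1 and 85.1 against 92.1 and 93.2), Prmt1, an arginine methyltransferase (88.6 and 67.8 against 92.8 and 96.6), and the kinase gene Pim1 (56.4 and 70.5 against 79.5 and 82.9) had both esculetin values above both controls. Stub1, a ubiquitin ligase, had 87.3 and 53.5 against 78.3 and 89.0, which overlap. In all, 4 of the 14 partner genes had both esculetin percentiles above both controls (14.7% of all promoters called in all libraries) and 2 had the reverse (29.5%). The median percentile of the 14 was 77.1 and 65.2 in the controls and 76.8 and 71.6 with esculetin, beside 80.2, 75.2, 63.9 and 76.1 over all protein-coding promoters called in all libraries.

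Genes known as RUNX targets, a list of 30 from blood, bone and T cells, had a promoter peak in 7 and 6 cases in the controls and 3 and 5 with esculetin, beside the shares of 37.3%, 38.8%, 27.9% and 34.9% over all promoters. With equal numbers of top peaks, the difference of means turned from -2.5 to 1 gene. In 22 of the 30 no library had a peak, against 56.4% of all promoters. Csf1, the macrophage growth factor (percentiles 11.4 and 7.54), Tal1, a blood stem cell factor (27.7 and 59.3), and Spp1, which encodes osteopontin (82.1 and 59.1), had a peak in both control libraries and neither esculetin library, as did 3.35% of all promoters. The 3 target genes with a peak in all libraries were Zbtb7b, a T cell factor (82.3 and 69.7 against 87.8 and 77.8), Hhex, a homeobox factor (73.1 and 45.2 against 10.3 and 55.9), and Spi1, which encodes PU.1 (66.4 and 45.4 against 17.1 and 49.9). In none of these 3 were the groups apart, and 24.8% of all promoters had a peak in all libraries. No target gene had a promoter peak in both esculetin libraries only, against 0.411% of all promoters. The median over the 3 was 73.1 and 45.4 in the controls and 17.1 and 55.9 with esculetin.

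**Figure D5:**
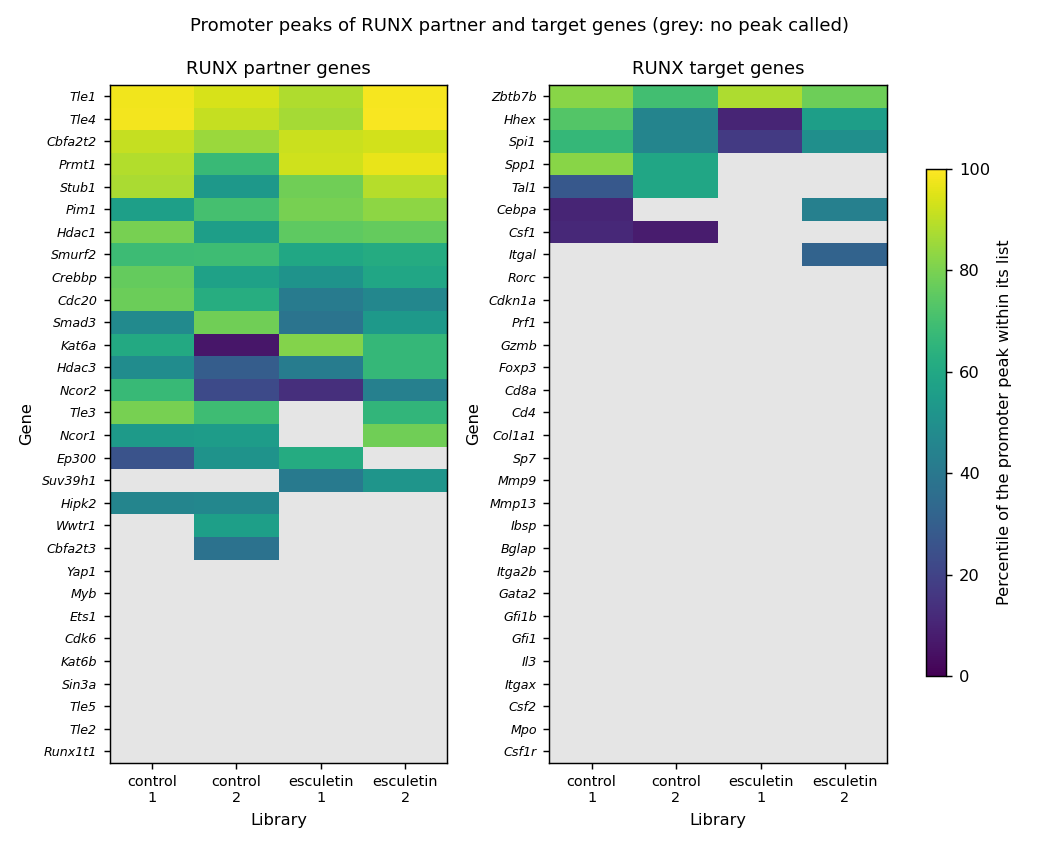
Colour gives the percentile of the promoter peak within its list for the 30 partner genes (left) and the 30 target genes (right) on the y axis in each library on the x axis, and grey marks no peak. Partner genes are filled in 18, 20, 16 and 17 rows and target genes in 7, 6, 3 and 5, from control replicate 1 to esculetin replicate 2.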

How the data were processed

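Per the labels and the study's methods, the authors trimmed reads with Trim Galore, aligned them to mm10 with Bowtie2, removed duplicate and multiply mapped reads, and called peaks with MACS2 in each library separately. Its options and any shift of reads for Tn5 are not given in the sources used here. The deposited lists hold the fold enrichment of each summit over its background (a linear ratio), the −log10 p-value, the −log10 q-value, a score and the summit offset. The lowest −log10 q was 1.35 to 1.41, near a limit of q 0.05. The authors' lists hold no read counts. Fold and p depend on depth, so peaks were compared by percentile of −log10 p within a list, which also depends on list length.

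Summit reads and background were solved from the fold and p of peaks with a −log10 p under 60 (100% solved), and the procedure was tested on simulated data. Gene ends came from a RefSeq table (GRCm38.p6), and strands from the RefSeq promoters or GENCODE vM39. All 6 RefSeq promoters of the members matched 1 place in GRCm39. The proximal start of Runx2, the exons and the introns were placed by distance from the 5′ end in GENCODE vM39. Protein sequences are not shown.

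Differences of group means (mean ± SD, n = 2) were compared by exact permutation (two-sided, all 6 ways to divide 4 libraries, smallest p 0.33). Named regions were those at promoters, in all libraries, in both libraries of 1 group only, or strongest in a gene. The rule named at most 8 genes a list, first those in 1 group only, then by mean percentile in all libraries (Tle2, Tle3, Tle5 and the Runx1 regions at 205.1 kb and 41.3 kb upstream were added after their values were seen), and for each promoter the 3 nearest in pattern. Members and lists were chosen with earlier results of these data known. Alternatives were other windows, equal numbers of top peaks, a stricter q, merging within 200 bp, percentiles of the fold, a replicate block and leaving out each library. The peak names inside the esculetin lists carry other replicate numbers than the sample titles. Scripts ran in Python 3.11.15 with SciPy 1.17.1, NumPy 2.4.6, pandas 2.3.3 and, for plots, matplotlib 3.10.9.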

Additional observations from a re-analysis of the deposited data

How the results depend on the processing

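Reading equal numbers of top peaks (8581 a list) changed most results. The difference of peak counts (esculetin minus control) became 0 at Runx1 and 0 at Runx2, regions called in both controls only fell to 1 and those in all libraries to 1. The difference of member peaks per 1000 listed turned from -0.122 to 0.117, that of partner genes with a promoter peak from -2.5 to 7.5 and that of target genes from -2.5 to 1. The shorter lists hold fewer peaks by construction. With the percentile of the fold, 2 shared regions (Cbfb promoter and Supt3 start) were higher in both esculetin libraries. By summit reads over background, an alternative chosen after seeing the data, the Runx1 distal promoter differed by 0.24 (exact permutation p = 0.67), opposite in sign to the percentile difference of -1.97. The cause of these last changes was not tested.

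With 1 library left out at a time, the difference in peaks was -10.5 to -8.5 at Runx1, -2 to -1 at Runx2, 0 to 2 at Runx3 (0 without esculetin replicate 2) and -0.5 to 0.5 at Cbfb. The percentile difference was 11.4 to 19.4 at Cbfb and -11.3 to 7.35 at the Runx1 distal promoter, positive without control replicate 1 or esculetin replicate 1. Regions in the controls only numbered 7 to 12 (12 without control replicate 1), in the esculetin libraries only 0 to 4 (4 without esculetin replicate 1) and in all libraries 3 to 5 (5 without esculetin replicate 1). Leaving out a library loosens each of these criteria, so these counts can rise by construction. The 4 in the esculetin libraries only were single calls of esculetin replicate 2. Shares over all regions at these settings are not given here. Shared regions higher in both controls numbered 1 in each case, against 0 with all libraries, and those higher in both esculetin libraries 1 to 2 (2 when either control was left out). The difference per 1000 listed was -0.244 to 0.000124, and those of partner and target genes were each -3.5 to -1.5.

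The labels share only replicate numbers, and libraries with the same number in their titles did not deviate together (correlation 0.00869 over 6181 shared regions). Because the peak names inside the esculetin lists carry other numbers, this check cannot show whether libraries were paired. With a replicate block, the difference at Runx1 was -9.5, with an exact sign-flip p of 0.5, the smallest the block allows. In a balanced design the block leaves every difference of means as it was by construction.

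The promoter percentile at equal numbers of top peaks was not run for Runx1 or Cbfb, whose peaks were not in all 4 shortened lists. That of Runx2 and Runx3 had no test, since the whole lists did not all hold a peak. With 2 libraries a group, the exact test cannot give a p under 0.33, and the weak peaks at Runx1 lie close to the limit of calling.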
